A study of Mus musculus with 18 samples.

Results

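Chaperones of the cytosol and the mitochondria were followed in splenic B cells after the B-cell receptor was crosslinked in the living mouse. The list held 44 genes, named by family: HSP70 and HSP110 proteins, J proteins, HSP70 co-chaperones, HSP90 and its co-chaperones, the CCT chaperonin, prefoldin, mitochondrial chaperones and heat shock factors. A gene was read from the probe set that the platform annotation gives to that gene alone, and from the one with the highest mean where a gene had several. Such a probe set existed for 40 of the 44 genes, and 39 passed the filter on low signal, among 11104 genes tested of 18193 genes named on the array. Hsp90ab1 and Hsf1 had no such probe set, the probe sets of Ptges3 also carried the symbol Ptges3-ps, and that of Ppid also carried Lamp3. Bag3 had signals from 1.01 to 21.7 and did not pass. The signals of these 5 genes were not tested.

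RNA came from CD23+ B lymphocytes of spleen, taken from mice of the C57BL/6J strain, and was measured on 18 Affymetrix Mouse Genome 430 2.0 arrays. The 4 groups were formed by what the mice received: PF-303 and then anti-IgD (n = 5), vehicle and then anti-IgD (n = 4), PF-303 and then PBS (n = 5), and vehicle and then PBS (n = 4). PF-303 inhibits BTK, a kinase that relays the signal of the B-cell receptor, and anti-IgD is an antibody that crosslinks the IgD form of that receptor on mature B cells. Drug or vehicle was given 2 h before the antibody or PBS, and cells were taken 2 h after it. Doses, the sex and age of the mice, and how the cells were isolated are not given in the sources used here. The values are MAS5 signals on a linear scale, each array scaled by the authors to one mean, so a value is relative to the rest of its array.

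Molecular chaperones hold and fold newly made or unfolded proteins. HSP70 proteins bind short exposed stretches and release them in an ATP cycle, which J proteins start and nucleotide exchange factors such as the HSP110 proteins and Bag1 end. HSP90, with its co-chaperones, receives clients such as kinases and steroid receptors from HSP70, and CCT, a double ring fed in part by prefoldin, folds actin and tubulin. In mitochondria, Hspa9 pulls in and holds imported proteins and the chaperonin of Hspd1 and Hspe1 folds them. Resting lymphocytes make little protein, and receptor stimulation starts growth in size and protein synthesis before division.

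The labelled cell type was checked against markers. Fcer2a, which encodes CD23, had signals of 1999 to 2359 with anti-IgD and PF-303, 1543 to 2043 with anti-IgD and vehicle, 2193 to 2615 with PBS and PF-303, and 2260 to 2979 with PBS and vehicle. The summed signal of the 6 follicular B-cell markers measured, of 8 listed, was 19980 to 29370, 14170 to 16850, 19800 to 34330 and 19850 to 37170 in the same order of groups. It was thus lowest with anti-IgD and vehicle, where Fcer2a, Cd79a, Cd79b and Cd22 were called lower than with PBS. Of these markers, Fcer2a, Cd79b and Cd22 were higher with PF-303 than with vehicle under anti-IgD.

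Of the 6 T-cell markers measured, of 8 listed, Cd3e lay between 1.24 and 12.5 on all arrays, below the filter level of 15.2, Cd8a lay above it on all arrays at 20.5 to 45.6, and Cd3d and Cd3g reached 35.2 and 27.2. Their sum was 49.1 to 103.9, 54.9 to 79.5, 42.8 to 118.6 and 47.9 to 105.5 in the same order, and the 3 that passed the filter had responses from -0.04 to 0.41 with PF-303 and -0.09 to 0.03 with vehicle on the log2 scale, without a call. The macrophage list summed to 1384 to 2965, 827 to 2894, 1229 to 2225 and 1376 to 1946, and the neutrophil list to 156 to 858, 179 to 552, 88.0 to 285 and 129 to 564. The plasma cell list had the largest sums of the other cell types, at 3570 to 5581, 3758 to 4414, 3189 to 4274 and 3758 to 3924. Of 29 markers of other cell types tested, 7 were called for anti-IgD with PF-303, where 14.7% of all genes were called higher and 19.1% lower. With vehicle 4 were called, where 17.4% of all genes were called higher and 30.6% lower. Cd14 of the macrophage list was higher by 1.57 ± 0.49 with PF-303 and 1.52 ± 0.55 with vehicle on the log2 scale. The other macrophage markers, Csf1r, Adgre1, Cd68 and Lyz2, had responses from -0.29 to 0.17 with PF-303 and -0.26 to 0.33 with vehicle, without a call. Prdm1, which plasma cells need and B cells can induce, was higher by 0.96 ± 0.11 with PF-303 and 1.07 ± 0.13 with vehicle. Pecam1 of the stromal and endothelial list was lower, at -0.76 ± 0.15 with PF-303 and -1.38 ± 0.17 with vehicle, as was Sdc1 of plasma cells, at -0.54 ± 0.19 and -0.84 ± 0.21. Kdr, the other marker of the Pecam1 list that was tested, changed by -0.09 ± 0.24 with PF-303 and -0.05 ± 0.26 with vehicle, neither a call. In PF-303-treated mice, S100a8 of the neutrophil list (1.07 ± 0.40), Prf1 of NK cells (0.37 ± 0.13) and Xbp1 of plasma cells (0.27 ± 0.09) were also called higher. With vehicle their responses of 0.42 ± 0.44, 0.13 ± 0.14 and 0.22 ± 0.10 did not pass. The other neutrophil markers tested, S100a9, Ngp and Elane, changed by 1.05, -0.19 and -0.34 with PF-303, none a call. With vehicle these changed by 0.15, -0.06 and -0.10, again without a call. The other NK-cell markers tested, Klrk1 and Gzma, changed by -0.04 and 0.16 with PF-303 and by 0.03 and -0.39 with vehicle, none a call. Jchain of the plasma cell list changed by 0.08 with PF-303 and -0.10 with vehicle, neither a call. Pecam1 was the 1 marker of other cell types called for PF-303 with anti-IgD, at 0.65 ± 0.16. Of all genes, 19.8% were called higher and 10.4% lower there. Spike-in controls were more than 2 times the level of the median array on 6 arrays, which were replicates 1 and 3 of the anti-IgD plus PF-303 group, 3 and 4 of the PBS plus PF-303 group, and 3 and 4 of the PBS plus vehicle group. No array of anti-IgD with vehicle was among them. The part of markers and spike-ins in the chaperone values was not tested, except where a value without those arrays is given. A lower signal here can come from fewer cells of a type or from less RNA per cell, and these cannot be told apart.

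Anti-IgD raised most of the chaperone genes within 2 h. With PF-303, 24 of the 39 genes tested were higher with anti-IgD than with PBS (limma, adjusted p under 0.05 over all genes), where 14.7% of all genes were called higher. With vehicle, 28 of the 39 were higher, where 17.4% of all genes were. Dnajc7 alone fell with PF-303, where 19.1% of all genes were called lower, and Dnajc7, Pfdn1 and Pfdn5 fell with vehicle, where 30.6% were. The median log2 fold change of the 39 chaperones was 0.29 with PF-303 and 0.38 with vehicle, and that of all genes was -0.05 with PF-303 and -0.13 with vehicle. When the arrays were shifted to one median, the median of all genes with vehicle was 0.04 and that of the chaperones 0.55. With this shift 2777 genes in all were higher and 2178 lower with vehicle, in place of 1928 and 3394, and 30 chaperones were higher and 1 lower.

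The 2 responses share no array, and their arrays mostly separated from PBS. With PF-303 every array with anti-IgD lay above every array with PBS in 18 chaperones, against 11.2% of all genes, and below in 2, Dnajc7 and Vbp1, against 13.6%. With vehicle this held for 23 above, against 15.2%, and for 2 below, Dnajc7 and Pfdn5, against 27.2%. The same 23 genes were called higher in both responses, against 11.3% of all genes, and 37 of 39 had the same sign, against 77.1%. Hspa8 was called with PF-303 and not with vehicle, and 5 genes were called with vehicle and not with PF-303. Across the 39 genes the fold changes of the 2 responses had a Pearson r of 0.86 (Spearman rho 0.81), against 0.81 (0.74) across all 11104 genes. Genes are not independent replicates, so this is a description.

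**Figure D1:**
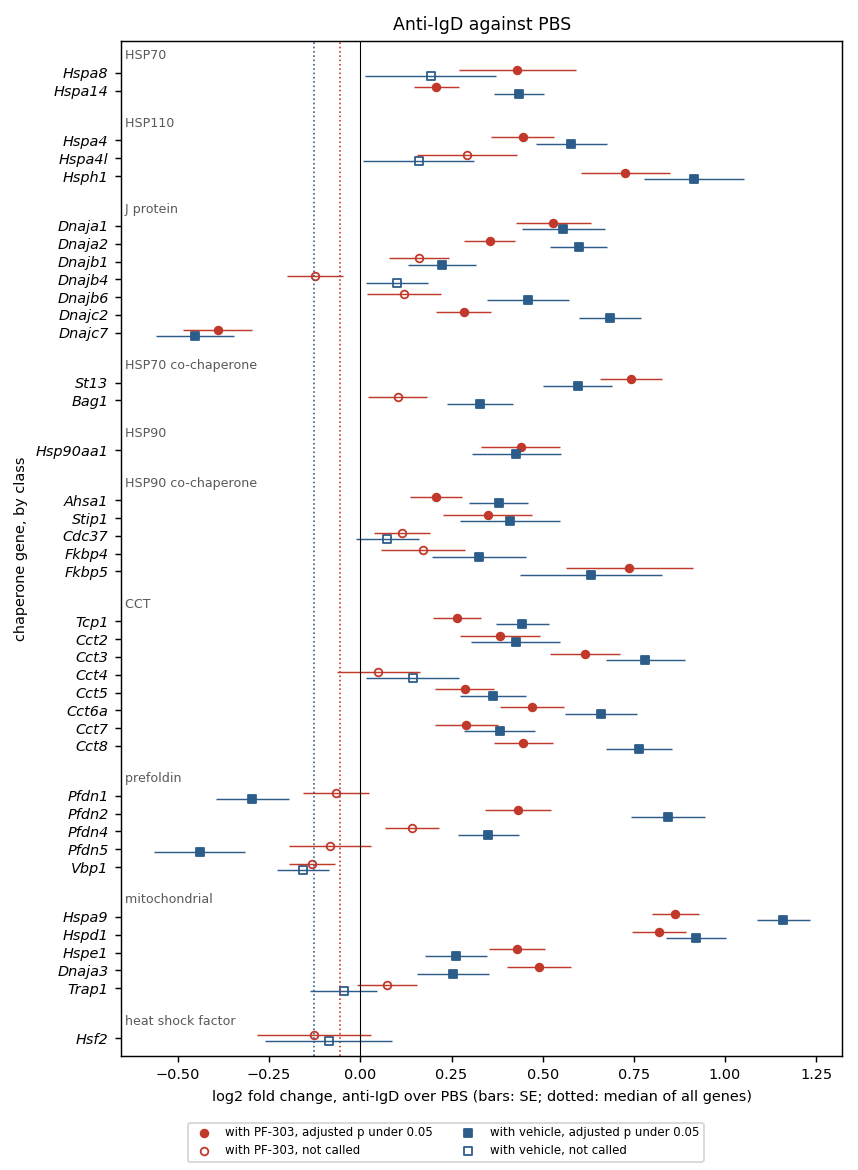
The log2 fold change of anti-IgD over PBS (horizontal axis, bars are SE) is plotted for the 39 chaperone genes tested, by class, with PF-303 (circles) and with vehicle (squares); filled symbols have an adjusted p under 0.05 and dotted lines mark the medians of all genes. Most squares lie right of 0 and of the circle of the same gene, Hspa9 is farthest right at 0.86 with PF-303 and 1.16 with vehicle, and Dnajc7 lies left of 0 in both.

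PF-303 lowered part of this set in stimulated cells. Compared with vehicle, 16 of the 39 genes were lower with PF-303 among anti-IgD-treated mice, where 10.4% of all genes were called lower. Pfdn1 and Pfdn5 were higher, where 19.8% of all genes were called higher. The median was -0.15 for the chaperones and 0.08 for all genes. With arrays shifted to one median, 17 chaperones were lower and 1 higher, and 1695 genes in all were lower and 1283 higher, in place of 1150 and 2202. In 13 chaperones every array with PF-303 lay below every array with vehicle, against 9.32% of all genes, and in 1, Pfdn5, every array lay above, against 17.5%. This comparison uses the same anti-IgD and vehicle arrays as the anti-IgD response in vehicle-treated mice, so the signs of the 2 are tied. Each of the 16 genes was among the 28 that anti-IgD raised with vehicle, and the other 12 of the 28 were not called for the drug. Leaving out replicate 5 of the anti-IgD plus vehicle group reduced the 16 to 10, with 1002 genes in all lower, in place of 1150. With the 6 high spike-in arrays left out, 14 chaperones were lower and 2 higher, and 1204 genes in all were lower and 2338 higher. An alternative that treats the row letter of the sample's position code as a block, a code the labels do not explain, called 6 lower (Hspa9, Hspd1, Dnajc2, Tcp1, Cct3 and Cct6a) and none higher. It called 656 genes in all lower and 1069 higher. Among the anti-IgD arrays only row C held both PF-303 and vehicle, so row and drug were partly confounded. Of the lost calls, Dnaja2 had an estimate of -0.27 (-0.25 reported) and Hsph1 one of -0.25 (-0.46 reported).

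In mice given PBS, PF-303 lowered 1 chaperone, Hspd1, and raised none, where 0.675% of all genes were called lower and 0.072% higher. Every array with PF-303 lay below every array with vehicle in 2 chaperones, Hspa9 and Hspd1, against 2.42% of all genes, and above in 0, against 1.68%. At an unadjusted p under 0.05 the count was 5, of which 4 were lower, against 10.6% of all genes in either direction and 5.82% lower. The interaction, the log2 response to anti-IgD with PF-303 minus that with vehicle, was called for 1 chaperone, Dnajc2, which was lower, where 3.12% of all genes were lower and 6.66% higher. The unadjusted count was 8, of which 7 were lower, against 24.1% of all genes in either direction and 7.73% lower. With arrays shifted to one median it was called lower for 6 chaperones, and for 689 genes in all, with 345 higher, in place of 346 lower and 740 higher.

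**Figure D2:**
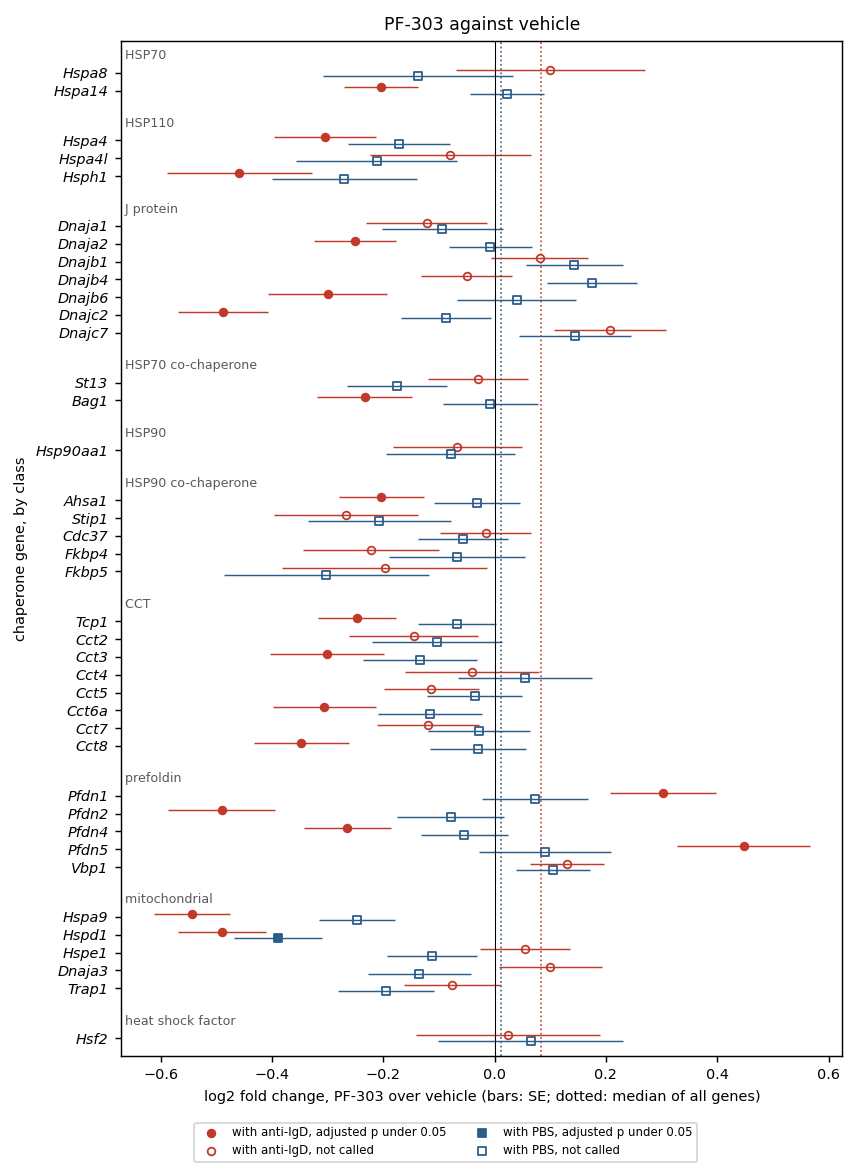
The log2 fold change of PF-303 over vehicle (horizontal axis, bars are SE) is plotted for the 39 chaperone genes tested, by class, with anti-IgD (circles) and with PBS (squares); filled symbols have an adjusted p under 0.05 and dotted lines mark the medians of all genes. Filled circles lie left of 0 in 16 genes, with Hspa9 at -0.54, and right of 0 in Pfdn1 and Pfdn5, and the single filled square is Hspd1.

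Hspa9 and Hspd1, both mitochondrial, had the 2 largest rises of the 39 genes in either drug setting. Hspa9, or mortalin, is the HSP70 of the mitochondrial matrix and part of the import motor. The signals of Hspa9 were 877, 848, 868, 944 and 886 with anti-IgD and PF-303, 1391, 1232, 1196 and 1376 with anti-IgD and vehicle, 479.5, 449.6, 515, 467 and 485 with PBS and PF-303, and 588, 591, 521 and 588 with PBS and vehicle. Every array with anti-IgD lay above every array with PBS, and every array with PF-303 lay below those with vehicle under the same antibody treatment. Hspa9 rose by 0.86 ± 0.06 with PF-303 (adjusted p = 7.28e-10) and 1.16 ± 0.07 with vehicle (adjusted p = 2.18e-11), and the drug effect was -0.54 ± 0.07 with anti-IgD (adjusted p = 3.55e-06). With PBS the drug effect of -0.25 ± 0.07 did not pass (adjusted p = 0.107), nor did the interaction of -0.30 ± 0.10 (adjusted p = 0.0566). Leaving out replicate 4 of the anti-IgD plus PF-303 group or replicate 4 of the anti-IgD plus vehicle group made that interaction a call, at -0.32 and -0.33.

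Hspd1 encodes HSP60, the ring of the mitochondrial chaperonin. Signals for Hspd1 read 1795, 1492, 1682, 1578 and 1507 with anti-IgD and PF-303, 2216, 2240.0, 2133 and 2477 with anti-IgD and vehicle, 898, 853, 894, 877 and 1001 with PBS and PF-303, and 1187, 1222, 1075 and 1278 with PBS and vehicle. The groups overlapped in none of the 4 comparisons between them. Hspd1 rose by 0.82 ± 0.07 with PF-303 (adjusted p = 1.33e-08) and 0.92 ± 0.08 with vehicle (adjusted p = 6.38e-09). The drug effect was -0.49 ± 0.08 with anti-IgD (adjusted p = 5.81e-05) and -0.39 ± 0.08 with PBS (adjusted p = 0.0169), and the interaction was -0.10 ± 0.11 with a 95% interval of -0.33 to 0.13. The call with PBS was lost without replicate 4 of the PBS plus PF-303 group (-0.38), replicate 1 of the PBS plus vehicle group (-0.39) or replicate 4 of the PBS plus vehicle group (-0.35). It was also lost without the high spike-in arrays (-0.39).

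Hspe1 encodes HSP10, the lid of the same chaperonin. Hspe1 had signals of 2054, 1970.0, 2115, 1780.0 and 1763 with anti-IgD and PF-303, 1710.2, 1945, 1775 and 2022 with anti-IgD and vehicle, 1566, 1371, 1437, 1411 and 1375 with PBS and PF-303, and 1523, 1541, 1442 and 1695 with PBS and vehicle. All arrays with anti-IgD lay above those with PBS under the same drug treatment, and the groups with anti-IgD overlapped each other. The rise was 0.43 ± 0.08 with PF-303 (adjusted p = 0.000132) and 0.26 ± 0.09 with vehicle (adjusted p = 0.015). The drug effect with anti-IgD was 0.05 ± 0.08, with a 95% interval of -0.11 to 0.22. Leaving out replicate 5 of the anti-IgD plus vehicle group ended the call in vehicle-treated mice, at 0.22. Dnaja3, a J protein that works with Hspa9, rose by 0.49 ± 0.09 with PF-303 (adjusted p = 0.000132) and 0.25 ± 0.10 with vehicle (adjusted p = 0.0361). The call with vehicle was lost when any 1 of 5 arrays was left out (0.19 to 0.25) or the row block was used (0.28). Trap1, the HSP90 of mitochondria, was not called in any comparison, with anti-IgD responses of 0.07 ± 0.08 with PF-303 and -0.05 ± 0.09 with vehicle.

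Hspe1 and Hspd1 lie head to head, with 216 bases between the start of Hspe1 and one annotated start of Hspd1 on the other strand. Another annotated start of Hspd1 lies 95 bases downstream of the Hspe1 start, so from it the genes overlap. The stretch before the start of Hspe1 is shown because it holds the longest run of heat shock element units among the chaperone promoters read, one it shares with Hspd1. It is given on its plus strand with the 250 bases before the start, chr1:55087898-55088147, from RefSeq with build GRCm38.p6. Hsph1 (chr5:149636316-149636565, minus strand) and Dnajb6 (chr5:29735729-29735978, plus strand) are shown as other genes with matches that anti-IgD raised with vehicle. Dnajb6 was not called with PF-303.
Hspe1: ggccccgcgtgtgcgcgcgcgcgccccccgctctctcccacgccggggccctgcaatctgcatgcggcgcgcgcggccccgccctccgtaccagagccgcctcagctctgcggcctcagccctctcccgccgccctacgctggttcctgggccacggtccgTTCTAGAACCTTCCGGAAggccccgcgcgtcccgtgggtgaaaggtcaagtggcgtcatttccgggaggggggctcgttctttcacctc
Hsph1: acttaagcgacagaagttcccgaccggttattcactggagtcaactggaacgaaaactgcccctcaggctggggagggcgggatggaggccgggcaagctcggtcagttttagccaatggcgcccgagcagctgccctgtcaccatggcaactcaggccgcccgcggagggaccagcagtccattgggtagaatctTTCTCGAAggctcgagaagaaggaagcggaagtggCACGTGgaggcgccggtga
Dnajb6: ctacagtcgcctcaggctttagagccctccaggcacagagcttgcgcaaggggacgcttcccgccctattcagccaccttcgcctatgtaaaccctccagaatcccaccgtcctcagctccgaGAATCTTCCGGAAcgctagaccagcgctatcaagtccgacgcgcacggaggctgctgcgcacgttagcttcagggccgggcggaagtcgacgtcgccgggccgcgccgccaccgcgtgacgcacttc
Capitals mark matches to 2 neighbouring units of the heat shock element (GAANNTTC or TTCNNGAA, each its own reverse complement), to 3 units (GAANNTTCNNGAA or TTCNNGAANNTTC, reverse complements of each other, which overlap the 2-unit matches), or to the E-box CACGTG. The heat shock element is bound by heat shock factors and the E-box by bHLH proteins such as MYC. The Hspe1 match begins 89 bases before the start, and the Hspd1 window chr1:55087933-55088182 holds the same run. Hsph1 has a 2-unit match 54 bases and an E-box 19 bases before its start, and Dnajb6 a 3-unit match 127 bases before. Of the 44 genes, 34 were in the promoter table, and 10 of these (29.4%) held a 2-unit match, against 14.5% of 27025 genes in the table. Among the 24 of these genes that anti-IgD raised with vehicle, 8 held such a match. Cdc37 and Dnajb4, which were not called, also held one. A 3-unit match was found in 3 of 34 (8.82%; Dnajb6, Hspd1 and Hspe1), against 0.514% of genes, and the E-box in 4 of 34 (11.8%; Fkbp5, Hsf2, Hspd1 and Hsph1), against 6.86%. The E-box of Hspd1 lies in the window before its other start (chr1:55088244-55088493), which held no heat shock match. A match describes the letters only and says nothing about binding.

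The HSP70 pair that works on ribosomes rose together. Hspa14 and the J protein Dnajc2 form the ribosome-associated complex, which meets new chains as they leave the ribosome. The signals of Hspa14 were 401, 424, 401, 463 and 453 with anti-IgD and PF-303, 501, 485, 498 and 496 with anti-IgD and vehicle, 380.0, 362, 376, 376 and 346 with PBS and PF-303, and 371, 396, 344 and 341 with PBS and vehicle. The arrays of anti-IgD with vehicle stood above all others. Hspa14 rose by 0.21 ± 0.06 with PF-303 (adjusted p = 0.0122) and 0.43 ± 0.07 with vehicle (adjusted p = 2.06e-05), and the drug effect was -0.20 ± 0.07 with anti-IgD (adjusted p = 0.0226). The drug call was lost when any 1 of 4 arrays was left out (-0.20 to -0.18) and without the high spike-in arrays (-0.14). With the mean of its probe sets the response with PF-303 was 0.08 and did not pass.

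Signals for Dnajc2 read 738, 829.1, 759, 787 and 818 with anti-IgD and PF-303, 1202, 1211, 912 and 1137 with anti-IgD and vehicle, 626, 577, 666, 681 and 669 with PBS and PF-303, and 676, 691, 646 and 723 with PBS and vehicle. Replicate 4 of anti-IgD with vehicle was the lowest of its group and still lay above every other group. Dnajc2 rose by 0.28 ± 0.08 with PF-303 (adjusted p = 0.00585) and 0.68 ± 0.09 with vehicle (adjusted p = 7.46e-07), and the drug effect was -0.49 ± 0.08 with anti-IgD (adjusted p = 7.97e-05) and -0.09 ± 0.08 with PBS (adjusted p = 0.762). The interaction of -0.40 ± 0.11 passed (adjusted p = 0.0285). That call was lost without replicate 1, 2 or 5 of the anti-IgD plus vehicle group (-0.36, -0.36 and -0.39), replicate 5 of the PBS plus PF-303 group (-0.39) or replicate 3 of the PBS plus vehicle group (-0.37). It was also lost with a replicate block (-0.38), with the row block (-0.42) and without the high spike-in arrays (-0.31).

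Hspa8 is the constitutive HSP70 of the cytosol. Hspa8 had signals of 7283, 5409, 8194, 7474 and 5422 with anti-IgD and PF-303, 5889, 6878, 5744 and 6395 with anti-IgD and vehicle, 4539.6, 4016, 5464, 6988 and 4213 with PBS and PF-303, and 4444, 4644, 6494 and 6500.4 with PBS and vehicle. The groups overlapped in every comparison. In both groups with PBS the 2 highest values were those of replicates 3 and 4, the arrays of high spike-in signal. The anti-IgD response was 0.43 ± 0.16 with PF-303 (adjusted p = 0.0428) and 0.19 ± 0.18 with vehicle (adjusted p = 0.406), and the drug effect was 0.10 ± 0.17 with anti-IgD (adjusted p = 0.716). The response with vehicle passed without the high spike-in arrays (0.45), after quantile normalization (0.56) and with the mean of its probe sets (0.48). After quantile normalization the drug effect turned to -0.37 and passed (adjusted p = 0.000682). The call with PF-303 was lost when any 1 of 7 arrays was left out (0.36 to 0.43).

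The HSP110 proteins, exchange factors of HSP70, gave 2 of 3 genes raised by anti-IgD in either drug setting and 2 of 3 lowered by PF-303 with anti-IgD. Of all genes, anti-IgD raised 14.7% with PF-303 and 17.4% with vehicle, and PF-303 lowered 10.4% with anti-IgD. Hsph1 is an HSP110 gene whose promoter is printed above. The signals of Hsph1 were 572, 549, 734, 602 and 517 with anti-IgD and PF-303, 747, 775, 915 and 844 with anti-IgD and vehicle, 296, 337, 267, 435 and 455 with PBS and PF-303, and 441, 485, 405 and 381 with PBS and vehicle. Every array of anti-IgD with vehicle lay above every array of the other groups. Hsph1 rose by 0.73 ± 0.12 with PF-303 (adjusted p = 6.87e-05) and 0.91 ± 0.14 with vehicle (adjusted p = 8.76e-06), and the drug effect was -0.46 ± 0.13 with anti-IgD (adjusted p = 0.00994) and -0.27 ± 0.13 with PBS (adjusted p = 0.47). The row block moved the drug effect to -0.25, no longer a call. Hspa4 rose by 0.44 ± 0.09 with PF-303 and 0.58 ± 0.10 with vehicle, and the drug effect was -0.30 ± 0.09 (adjusted p = 0.0148), lost without replicate 1 of the anti-IgD plus vehicle group (-0.25). With the mean of its probe sets the response with PF-303 was 0.18 and did not pass. Hspa4l was not called in any of the 5 comparisons. It became a call for anti-IgD with vehicle after quantile normalization (0.39, against 0.16) and for PF-303 with anti-IgD with the mean of its probe sets (-0.37, against -0.08).

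Among 7 J proteins, anti-IgD raised 3 and lowered 1 with PF-303, where 14.7% of all genes were called higher and 19.1% lower. With vehicle it raised 5 and lowered 1, where 17.4% of all genes were called higher and 30.6% lower. PF-303 lowered 3 with anti-IgD, where 10.4% of all genes were called lower. Dnajb1, the classical HSP40, is a heat shock gene in many cells. Signals for Dnajb1 read 520.1, 545, 584, 669 and 609 with anti-IgD and PF-303, 557, 554, 583 and 510.1 with anti-IgD and vehicle, 504, 489.9, 467, 637 and 516 with PBS and PF-303, and 465, 497, 489.7 and 428 with PBS and vehicle. Replicate 4 of PBS with PF-303 stood apart from its group. With vehicle the arrays with anti-IgD all lay above those with PBS, and the rise of 0.22 ± 0.09 passed narrowly (adjusted p = 0.0499). That call was lost when any 1 of 12 arrays was left out (0.18 to 0.24) and with 8 other settings (0.15 to 0.23). With PF-303 the change was 0.16 ± 0.08 (adjusted p = 0.145), which passed without replicate 4 of the PBS plus PF-303 group (0.23) or without the high spike-in arrays (0.26), and the drug effect with anti-IgD was 0.08 ± 0.09.

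Dnaja1 and Dnaja2, J proteins of the same type, rose by 0.53 ± 0.10 and 0.36 ± 0.07 with PF-303 and by 0.56 ± 0.11 and 0.60 ± 0.08 with vehicle. The drug effect with anti-IgD was a call for Dnaja2 (-0.25 ± 0.07, adjusted p = 0.0131) and not for Dnaja1 (-0.12 ± 0.11, 95% interval -0.35 to 0.10). Dnajb6, known for keeping polyglutamine proteins from aggregating, changed by 0.12 ± 0.10 with PF-303 (adjusted p = 0.402) and rose by 0.46 ± 0.11 with vehicle (adjusted p = 0.00183). With the mean of its probe sets the response with vehicle was 0.10 and did not pass. The drug effect of -0.30 ± 0.11 (adjusted p = 0.0381) was lost when any 1 of 6 arrays was left out (-0.30 to -0.25). Dnajc7, whose TPR repeats bind both HSP70 and HSP90, was the J protein that fell, with log2 fold changes of -0.39 ± 0.09 with PF-303 (adjusted p = 0.00259) and -0.45 ± 0.11 with vehicle (adjusted p = 0.00119). Its arrays with anti-IgD all lay below those with PBS in both drug settings. Dnajc7 with PF-303 was no longer a call with the row block (-0.30). Dnajb4 was not called in any comparison, and became a call for anti-IgD with vehicle when arrays were shifted to one median (0.27) or quantile normalized (0.26).

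St13, or HIP, holds HSP70 in its substrate-bound state. St13 had signals of 1882, 1552, 1632, 1670.4 and 1561 with anti-IgD and PF-303, 1738, 1683, 1468 and 1905 with anti-IgD and vehicle, 1039, 913, 872, 1135 and 980.1 with PBS and PF-303, and 1093, 1089, 1064 and 1212 with PBS and vehicle. The arrays with anti-IgD lay above those with PBS in both drug settings, and the groups with anti-IgD overlapped. The rise was 0.74 ± 0.08 with PF-303 (adjusted p = 4.26e-07) and 0.60 ± 0.09 with vehicle (adjusted p = 1.82e-05), and the drug effect with anti-IgD was -0.03 ± 0.09 with a 95% interval of -0.22 to 0.16. Bag1, an exchange factor that links HSP70 to the proteasome, changed by 0.10 ± 0.08 with PF-303 (adjusted p = 0.365) and rose by 0.33 ± 0.09 with vehicle (adjusted p = 0.00458), a call lost without the high spike-in arrays (0.20). The drug effect of -0.23 ± 0.09 (adjusted p = 0.0438) was lost when any 1 of 10 arrays was left out (-0.26 to -0.21).

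Hsp90aa1 encodes the inducible HSP90 of the cytosol. The signals of Hsp90aa1 were 3684, 3252, 3977, 2775 and 2932 with anti-IgD and PF-303, 3594, 3636, 2818 and 3853 with anti-IgD and vehicle, 2250.1, 2243, 2556, 2733 and 2374 with PBS and PF-303, and 2375, 2441, 2558 and 2901 with PBS and vehicle. With PF-303 the arrays with anti-IgD all lay above those with PBS, and with vehicle replicate 4 of anti-IgD fell below the highest PBS array. Hsp90aa1 rose by 0.44 ± 0.11 with PF-303 (adjusted p = 0.00307) and 0.43 ± 0.12 with vehicle (adjusted p = 0.00588). The drug effect with anti-IgD was -0.07 ± 0.12 on this probe set, with a 95% interval of -0.31 to 0.17. It passed after quantile normalization (-0.28) and with the mean of its probe sets (-0.34).

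Of the 5 HSP90 co-chaperones tested, anti-IgD raised 3 with PF-303 and 4 with vehicle, where 14.7% and 17.4% of all genes were called higher. PF-303 lowered 1 with anti-IgD, where 10.4% of all genes were called lower. Fkbp5, an immunophilin of steroid receptor complexes and a glucocorticoid-induced gene, had the largest rise of the class. Signals for Fkbp5 read 261, 276, 197, 326 and 323 with anti-IgD and PF-303, 368, 295, 420.2 and 213 with anti-IgD and vehicle, 161, 128, 142, 157 and 206 with PBS and PF-303, and 290.3, 196, 147 and 180.2 with PBS and vehicle. The groups overlapped in every comparison. The rise was 0.74 ± 0.17 with PF-303 (adjusted p = 0.002) and 0.63 ± 0.19 with vehicle (adjusted p = 0.00997). The call with vehicle was lost with the row block (0.13) and without the high spike-in arrays (0.38).

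Its paralog Fkbp4 rose by 0.33 ± 0.13 with vehicle (adjusted p = 0.0409), a call lost when any 1 of 6 arrays was left out (0.25 to 0.34). Ahsa1, which activates the HSP90 ATPase, rose by 0.21 ± 0.07 with PF-303 (adjusted p = 0.0301) and 0.38 ± 0.08 with vehicle (adjusted p = 0.000486). The rise with PF-303 was lost when any 1 of 4 arrays was left out (0.16 to 0.19) and with the mean of its probe sets (0.11). Its drug effect of -0.20 ± 0.08 (adjusted p = 0.0484) was lost when any 1 of 13 arrays was left out (-0.22 to -0.17). Stip1, or HOP, which hands clients from HSP70 to HSP90, rose by 0.35 ± 0.12 with PF-303 (adjusted p = 0.0299) and 0.41 ± 0.14 with vehicle (adjusted p = 0.0162). The call with PF-303 was lost when any 1 of 5 arrays was left out (0.22 to 0.35), and the call with vehicle without replicate 5 of the anti-IgD plus vehicle group or replicate 2 of the PBS plus vehicle group (0.34 each). Cdc37, which brings kinases to HSP90, was not called in any comparison, with anti-IgD responses of 0.12 ± 0.08 with PF-303 and 0.07 ± 0.09 with vehicle. It became a call with vehicle when arrays were shifted to one median (0.24), and with the mean of its probe sets in both drug settings (0.24 with PF-303 and 0.28 with vehicle).

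Of the 8 CCT subunits, 7 rose with anti-IgD in either drug setting, and none fell. Of all genes, 14.7% were called higher and 19.1% lower with PF-303, and 17.4% higher and 30.6% lower with vehicle. Cct3 had the largest rise of the class. Cct3 had signals of 2241, 1956, 2517, 1786 and 1922 with anti-IgD and PF-303, 2392, 2641, 2229 and 3009 with anti-IgD and vehicle, 1269.7, 1262, 1408, 1537 and 1268 with PBS and PF-303, and 1449, 1470.0, 1541 and 1455 with PBS and vehicle. With either drug setting the arrays with anti-IgD lay above those with PBS, and the PF-303 and vehicle arrays with anti-IgD overlapped. Cct3 rose by 0.62 ± 0.10 with PF-303 (adjusted p = 2.92e-05) and 0.78 ± 0.11 with vehicle (adjusted p = 3.15e-06), and the drug effect was -0.30 ± 0.10 with anti-IgD (adjusted p = 0.0302). That drug call was lost when any 1 of 5 arrays was left out (-0.28 to -0.22). Rises of the other 6 raised subunits ranged from 0.27 ± 0.07 for Tcp1 to 0.47 ± 0.09 for Cct6a with PF-303, and from 0.36 ± 0.09 for Cct5 to 0.76 ± 0.09 for Cct8 with vehicle. Cct4 was the exception, at 0.05 ± 0.11 with PF-303 and 0.14 ± 0.13 with vehicle, neither a call. Where 10.4% of all genes were called lower, PF-303 lowered 4 subunits in stimulated cells, Cct3, Tcp1 (-0.25 ± 0.07), Cct6a (-0.31 ± 0.09) and Cct8 (-0.35 ± 0.09). In the other 4 the estimates ran from -0.15 ± 0.12 for Cct2 to -0.04 ± 0.12 for Cct4, and none passed. Of these 4, Cct2 passed after quantile normalization (-0.36) and with the mean of its probe sets (-0.21), Cct5 after quantile normalization (-0.20) and Cct7 with the mean of its probe sets (-0.31). The Cct8 call was lost with the row block (-0.33), as were the rises of Tcp1, Cct5 and Cct7 with PF-303 (0.21, 0.22 and 0.20). The Cct6a call was lost without replicate 2 or 5 of the anti-IgD plus vehicle group (-0.28 each).

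Prefoldin subunits moved in both directions. Pfdn2 and Pfdn4 rose with anti-IgD and vehicle, Pfdn1 and Pfdn5 fell, and Vbp1, prefoldin subunit 3, was not called (after quantile normalization it was, at -0.18 with PF-303 and -0.19 with vehicle). The signals of Pfdn2 were 444, 448, 411, 476 and 396 with anti-IgD and PF-303, 643, 571, 642 and 612 with anti-IgD and vehicle, 319.5, 306, 297, 281 and 392.3 with PBS and PF-303, and 360.5, 389, 273 and 332 with PBS and vehicle. Every array of anti-IgD with vehicle lay above all others. Pfdn2 rose by 0.43 ± 0.09 with PF-303 (adjusted p = 0.000728) and 0.84 ± 0.10 with vehicle (adjusted p = 4.81e-07), and the drug effect was -0.49 ± 0.10 with anti-IgD (adjusted p = 0.000476). The interaction of -0.41 ± 0.14 did not pass (adjusted p = 0.0597), and leaving out replicate 4 of the PBS plus PF-303 group (-0.45) or replicate 2 of the PBS plus vehicle group (-0.48) made it a call. Pfdn4 rose by 0.35 ± 0.08 with vehicle (adjusted p = 0.0012), and its drug effect was -0.27 ± 0.08 (adjusted p = 0.0129).

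Pfdn5, also known as a MYC-binding protein, was the one chaperone whose arrays with PF-303 all lay above those with vehicle under anti-IgD. Signals for Pfdn5 read 2361, 2859, 2790.1, 2240.0 and 2316 with anti-IgD and PF-303, 1589, 2052, 1752 and 1962 with anti-IgD and vehicle, 2778, 2326, 2923, 3149.7 and 2201 with PBS and PF-303, and 2268, 2399.8, 2985 and 2360.4 with PBS and vehicle. Anti-IgD with vehicle gave the 4 lowest values of the 18. The anti-IgD response was -0.08 ± 0.11 with PF-303 (adjusted p = 0.613) and -0.44 ± 0.13 with vehicle (adjusted p = 0.00583), and the drug effect was 0.45 ± 0.12 with anti-IgD (adjusted p = 0.00633). Pfdn1 changed by -0.30 ± 0.10 with vehicle (adjusted p = 0.0184) and its drug effect was 0.30 ± 0.10 (adjusted p = 0.0193). When arrays were shifted to one median, the falls with vehicle were -0.13 for Pfdn1 and -0.28 for Pfdn5 and no longer passed, and the drug effect of Pfdn1 was 0.19 and did not pass. The row block ended all 4 of these calls, and quantile normalization ended both of Pfdn1 (-0.23 and 0.22). The Pfdn1 fall was also lost without replicate 4 of the anti-IgD plus vehicle group (-0.22), and its drug effect without replicate 2 of the anti-IgD plus PF-303 group (0.27) or replicate 4 or 5 of the anti-IgD plus vehicle group (0.22 and 0.28). Hsf2, a heat shock factor, had signals from 4.78 to 19.6, about the filter level, and was not called in any comparison.

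**Figure D3:**
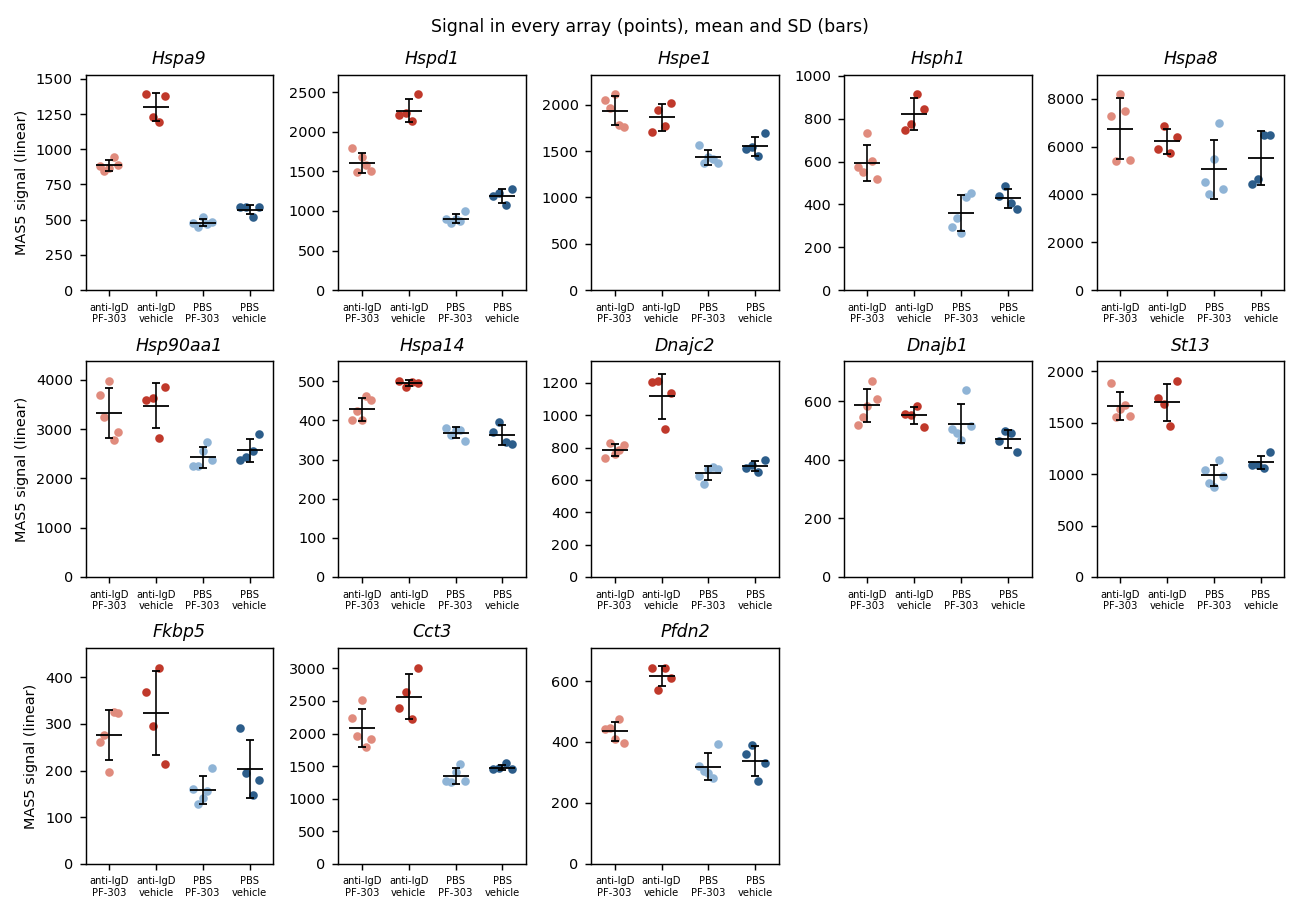
The MAS5 signal (linear axis from 0) of 13 chaperone genes is plotted for each of the 18 arrays by group, with the group mean and SD as bars. Hspa9 lies between 1196 and 1391 with anti-IgD and vehicle, above all other arrays, and Hspa8 overlaps between all groups.

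Several probe sets of a gene did not always give one answer for the drug. Over the 39 genes 96 probe sets passed the filter on their own, 85 of them in 28 genes with several. Fitted one by one, with p-values adjusted over all probe sets, 57 of the 96 were higher and 5 lower for anti-IgD with vehicle, against 17.3% and 25.4% of all 20836 probe sets. For PF-303 with anti-IgD 3 were higher and 37 lower, against 14.6% and 11.7%. With the mean of a gene's probe sets, 21 of 39 genes were lower for PF-303 with anti-IgD, where 12.5% of all genes were, in place of 16 with the single probe set, where 10.4% were. Of the 28 genes, all probe sets had one sign in 18 for anti-IgD with PF-303 and in 23 with vehicle. For PF-303 this held in 22 with anti-IgD and 20 with PBS, and for the interaction in 14. Opposite calls occurred in Dnajb6 alone, for anti-IgD with vehicle, where 1448234_at gave 0.46 and 1434035_at gave -0.24. The 4 genes described next were chosen after their values were seen. Hsp90aa1 fell with PF-303 under anti-IgD by 0.43 ± 0.10 on 1426645_at (adjusted p = 0.0024) and by 0.51 ± 0.11 on 1437497_a_at (adjusted p = 0.0011), while 1438902_a_at, used above, gave -0.07 ± 0.12. For St13, 1460193_at gave -0.42 ± 0.10 (adjusted p = 0.00276) where 1436113_a_at gave -0.03 ± 0.09. For Hspa8, 1431182_at gave -0.54 ± 0.12 (adjusted p = 0.00244), 1420622_a_at gave -0.40 ± 0.20 without passing, and 1420623_x_at and 1455789_x_at gave 0.06 ± 0.14 and 0.10 ± 0.17. For Hspe1, 1422579_at gave -0.25 ± 0.11 without passing, where 1450668_s_at gave 0.05 ± 0.08. In Affymetrix naming, x marks probe sets that can bind other transcripts and s those shared by several transcripts, so Hspa8, Cct2, Cct3 and Cct4 (x) and Dnaja2, Dnajc2, Pfdn5 and Hspe1 (s) were read with such sets.

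**Figure D4:**
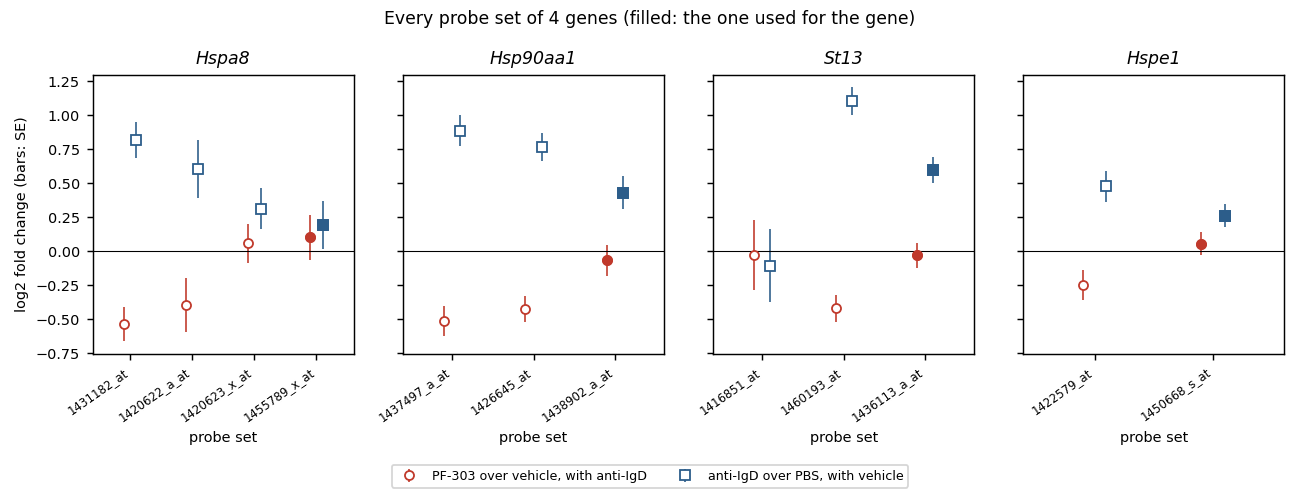
The log2 fold change (vertical axis, bars are SE) of every probe set that passed the filter is plotted for Hspa8, Hsp90aa1, St13 and Hspe1, for PF-303 over vehicle with anti-IgD (circles) and for anti-IgD over PBS with vehicle (squares), with the probe set used for the gene filled. Probe sets of one gene differ in both comparisons, as in Hsp90aa1, where the drug effect is -0.07 on the set used and -0.43 and -0.51 on the others.

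Other chaperone genes were followed on a list of 98, of which 80 were tested. Anti-IgD raised 17 and lowered 6 of the 80 with PF-303, where it raised 14.7% and lowered 19.1% of all genes, and raised 21 and lowered 12 with vehicle, where these shares were 17.4% and 30.6%. PF-303 lowered 11 and raised 7 with anti-IgD, against 10.4% and 19.8% of all genes. With PBS it called 0 in either direction (limma), where 0.675% of all genes were called lower and 0.072% higher. At an unadjusted p under 0.05 the count with PBS was 13 of 80, against 10.6% of all genes. The interaction called 2 lower and 2 higher, against 3.12% and 6.66%. Their median fold change was 0.03 for anti-IgD with vehicle, against 0.38 for the 39 chaperones described above and -0.13 for all genes. The 5 largest rises with vehicle were those of Bag5, an HSP70 exchange factor (1.19 ± 0.12), Dnajc21, which acts in maturation of the large ribosomal subunit (1.15 ± 0.17), Dnajc27 (1.12 ± 0.14), Ruvbl1, an ATPase that works with HSP90 (0.91 ± 0.09), and the mitochondrial Dnajc11 (0.78 ± 0.14). Each of these 5 was lower with PF-303 under anti-IgD. They were picked on anti-IgD and vehicle arrays that also enter the drug effect and the interaction, so the signs are tied. Dnajc21 averaged 354 ± 86.3, 664 ± 45, 341 ± 33.9 and 297 ± 77.4 with anti-IgD and PF-303, anti-IgD and vehicle, PBS and PF-303, and PBS and vehicle (SD, n = 5, 4, 5 and 4). Its response with PF-303 was 0.02 ± 0.15 (adjusted p = 0.931), and its interaction of -1.13 ± 0.23 passed (adjusted p = 0.00338), as did that of Bag5 at -0.63 ± 0.16 (adjusted p = 0.0172). The 5 largest falls were those of Dnajc9, a J protein and histone chaperone (-0.92 ± 0.08), Dnajc14 (-0.67 ± 0.10), Dnajc28 (-0.64 ± 0.15), Dnajc12 (-0.59 ± 0.22) and Dnajb14 (-0.52 ± 0.13). Hspa1b, a stress-inducible HSP70, had signals of 22.0 to 41.2, 23.9 to 99.0, 14.8 to 40.0 and 33.3 to 59.1 in the same order of groups and changed by 0.20 ± 0.26 with vehicle (adjusted p = 0.546). With anti-IgD it was lower with PF-303 than with vehicle, with a log2 difference of -0.65 ± 0.24 (adjusted p = 0.0454). Its mean was also lower with PF-303 under PBS, at 23.8 against 45.1 with vehicle (SD 9.54 and 10.7), where none of the 80 was called. The drug difference was thus not seen with anti-IgD alone. Hspa1a did not pass the filter, and the small heat shock gene Hspb1 changed by 0.02 ± 0.22 with anti-IgD and vehicle (adjusted p = 0.952).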

How the data were processed

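RNA from CD23+ splenic B cells was measured on 18 arrays, from 150 ng of total RNA per sample with a 3' labelling kit, per the labels' protocols. The deposited values are intensities, MAS5 signals per probe set on a linear scale, made by the authors with MAS5 per the submitters' processing notes, whose version and settings are not given in the sources used here. The 2%-trimmed mean was 99.9 on every array, so each had been scaled to one level, which removes differences in total RNA per cell. Signals were taken as log2(signal + 16), which shrinks the fold changes of low signals. Probe sets above 15.2 (the median over all arrays and probe sets) in 4 or more arrays were kept, with 1 probe set per gene. All 18 arrays entered 1 fit with 1 mean per group (R 4.3.3 with limma 3.58.1). The functions were lmFit and eBayes, the prior variance following mean signal. In the alternatives with a block, the block entered as fixed terms of the fit, and statmod 1.5.0 was loaded but not used for it. The script was tested on simulated data. Tests were two-sided with Benjamini-Hochberg adjustment over 11104 genes within each of 5 contrasts, and errors of fold changes are SE. For arrays, the number of samples limits the precision, and the median SE over all genes was 0.129 for anti-IgD with vehicle.

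The chaperone genes, the list of other chaperones and the markers were chosen with earlier results of these data known. Genes given array by array were those with the largest response to anti-IgD with vehicle in each class, plus Hspa8, Hspd1, Hspe1 and Dnajb1, and Pfdn5, chosen after its values were seen. Other chaperones are named by the 5 largest rises and falls, and 3 stress-inducible genes were added. Whether samples of one group are separate mice is not stated in the labels. The p-values then reflect only how far these samples spread, which may be technical. The SD of log2 differences was at least 0.239 for any pair of arrays, with a median of 0.311 for pairs within a group. No level of technical noise was measured, so these values cannot show whether the samples are separate mice. Alternatives covered the offset, the filter, normalization, the probe set rule, the variance trend, the samples fitted, blocks and arrays left out. Leaving out the 2 arrays with a Gapdh 3'/5' signal ratio above 1 and testing every probe set were added after seeing the data. Promoter letters are those of RefSeq, build GRCm38.p6.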

Additional observations from a re-analysis of the deposited data

Results flagged for a closer look

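In 156 groups of 4 or 5 arrays (39 genes in 4 groups), the gap of the highest or lowest array to the next was set against the range of its group, and 6 passed the limit, which chance alone is set to exceed in about 1 group of 20. Dnajb1 was 637 in replicate 4 of PBS with PF-303, against 467 to 516 in the others of its group. Bag1 was 497 in replicate 4 of anti-IgD with PF-303, against 396 to 411. Tcp1 was 1789 in replicate 3 of that group, against 1546 to 1607, and Vbp1 was 1122 in its replicate 4, against 1169 to 1174. Cct4 was 2599.7 in replicate 3 of PBS with vehicle, against 2333 to 2378, and Hspa9 was 521 in the same replicate, against 588 to 591. That array, replicate 3 of PBS with vehicle, and replicate 4 of PBS with PF-303 and replicate 3 of anti-IgD with PF-303 were among the 6 of high spike-in signal, and the part of this in the values was not tested.

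The response of Dnajc2 to anti-IgD differed between PF-303 and vehicle by -0.40 on the log2 scale, by a test of the difference itself (limma, adjusted p = 0.0285). With PF-303, 5 of 5 arrays with anti-IgD lay above every array with PBS, and with vehicle 4 of 4 did.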

How the results depend on the processing

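The counts of chaperones called higher with anti-IgD stayed within 1.5 times the reported ones under every alternative run, from 18 to 25 with PF-303 (24 reported) and from 22 to 31 with vehicle (28 reported), and 16 of the 24 and 20 of the 28 genes were called under each of them. Over all genes, the counts called higher ran from 1308 to 1868 with PF-303 (1635 reported) and from 1448 to 2777 with vehicle (1928 reported). Both were lowest with the row block and highest with the median shift. Of the 16 genes lower with PF-303 under anti-IgD, 4 were called under each (Hspa9, Hspd1, Tcp1 and Dnajc2). The count of chaperones lower there was 6 with the row block and 10 to 16 with 1 array left out, lowest without replicate 5 of anti-IgD with vehicle. Over all genes it was 656 with the row block and 951 to 1209 with 1 array left out (1150 reported). The 2 genes higher with PF-303 under anti-IgD became 1 with arrays shifted to one median or quantile normalization, 0 with the row block, and 1 to 2 with 1 array left out. The 3 genes lower with anti-IgD and vehicle became 1 with the median shift or the row block, and the 1 lower with PF-303 became 2 with quantile normalization and 0 with the row block. The 1 gene lower with PF-303 under PBS became 0 when only the compared groups were fitted, with the row block and without the high spike-in arrays, and 0 to 1 with 1 array left out. The 1 gene with a lower interaction became 3 with an offset of 64, 6 with the median shift, 2 with quantile normalization, 2 with the mean of a gene's probe sets, 0 with the replicate block, the row block or without the high spike-in arrays, and 0 to 2 with 1 array left out. The difference of Hspa8 for PF-303 with anti-IgD, reported as 0.10, turned to -0.37 after quantile normalization. Over all genes, the row block reduced the calls for PF-303 with anti-IgD to 1069 higher and 656 lower (2202 and 1150 reported) and those of the interaction to 189 and 102 (740 and 346). Quantile normalization gave 1559 higher and 1434 lower for PF-303 with anti-IgD, 497 and 438 for the interaction, and 2323 and 2614 for anti-IgD with vehicle (1928 and 3394 reported). The causes were not tested.

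Replicate numbers recur across groups, and the labels do not state whether they pair the samples. Same-numbered arrays of different groups had correlations of their deviations from -0.161 to 0.225 (24 pairs, median -0.00261), of which 7 passed 0.1. Arrays of different number and group had -0.287 to 0.448 (97 pairs, median -0.0168), of which 18 passed 0.1. The replicate block left 24, 27 and 15 chaperones called higher with anti-IgD and PF-303, higher with anti-IgD and vehicle, and lower with PF-303 under anti-IgD. Over all 11104 genes it called 1727, 1892 and 1153, in place of 1635, 1928 and 1150. Without the 2 arrays of high Gapdh ratio the counts of chaperones were 24, 26 and 14, and those of all genes 1645, 1841 and 1153. The arrays measure RNA and not protein, 4 of the 44 genes could not be read by a probe set of their own, and signals near 15.2, such as those of Hsf2, set no direction.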
